A study of Mus musculus with 8 samples.

Results

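The 29 genes described here encode proteins of homologous recombination, which repairs broken chromosomes from an intact copy, and of the Fanconi anaemia pathway, which clears crosslinks between DNA strands. They were picked by gene symbol, with earlier results of these data known, and all 29 were found among the 23420 entries of both deposited count tables. All 29 also passed the filter on low counts, a mean of at least 10 counts over the libraries fitted. The libraries were RNA sequencing libraries of NIH3T3, a line of mouse embryonic fibroblasts grown in bovine calf serum. Cells of the first group carried a short hairpin RNA (shRNA) against RPRD1B, and cells of the control group a scrambled shRNA. Both groups were kept under puromycin for 1 week or more, per the labels, which also state that protein knockdown was checked by Western blot. Each group had 4 libraries: replicates 3 and 4 were deposited as set 2, and replicates 1 and 2 as set 1, each set with its own table. What separates the sets is not stated, nor whether replicates were separate cultures, so p-values measure the spread between libraries, which may be technical. RPRD1B binds the C-terminal tail of RNA polymerase II, and the design asks which messenger RNA levels differ when it is depleted. In bulk RNA, fewer cells in the cycle phase that uses a gene and less of its RNA per cell cannot be told apart.

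As background, recombination starts when the MRE11-RAD50-NBN complex and CtIP cut back a broken end and EXO1 lengthens the single strand, and BRCA1, BARD1, PALB2 and BRCA2 then prepare that strand for the search for an intact copy. XRCC2, XRCC3 and related strand-exchange paralogs, with RAD54, help it invade the sister chromatid, and the BLM helicase takes apart the joined molecules. In the Fanconi pathway a core complex with FANCL as its ubiquitin ligase subunit marks the FANCD2-FANCI pair at a stalled fork, after which BRCA2, PALB2, BRIP1 and RAD51C act in both pathways. Fibroblasts that divide, such as NIH3T3, use these proteins mainly in S and G2 phase.

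Promoter sequences were printed for 4 genes on which the results turn: Brca2, the gene called over both sets, Rad52, called in opposite directions in the sets, and Xrcc3 and Fancf, which stood highest and lowest in set 2 relative to set 1. Each run holds the 250 bases before the transcription start, 5′ to 3′ on the strand of the gene, from RefSeq GRCm38.p6. Capitals mark letters of 2 cell cycle motifs, E2F and CCAAT (the NF-Y box), on either strand. The windows are chr5:150522371-150522620, plus strand; chr6:119902448-119902697, plus strand; chr12:111813880-111814129, minus strand; and chr7:51862268-51862517, minus strand.
Brca2 promoter: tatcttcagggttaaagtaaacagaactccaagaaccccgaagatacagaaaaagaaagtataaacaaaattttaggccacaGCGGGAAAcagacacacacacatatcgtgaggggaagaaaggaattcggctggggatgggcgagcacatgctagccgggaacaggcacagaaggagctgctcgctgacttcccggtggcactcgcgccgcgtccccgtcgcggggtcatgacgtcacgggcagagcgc
Rad52 promoter: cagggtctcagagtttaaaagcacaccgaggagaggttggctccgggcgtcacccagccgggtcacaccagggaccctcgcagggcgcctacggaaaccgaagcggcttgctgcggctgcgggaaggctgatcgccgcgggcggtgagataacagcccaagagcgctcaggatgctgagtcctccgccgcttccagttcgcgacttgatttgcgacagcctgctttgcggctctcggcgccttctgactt
Xrcc3 promoter: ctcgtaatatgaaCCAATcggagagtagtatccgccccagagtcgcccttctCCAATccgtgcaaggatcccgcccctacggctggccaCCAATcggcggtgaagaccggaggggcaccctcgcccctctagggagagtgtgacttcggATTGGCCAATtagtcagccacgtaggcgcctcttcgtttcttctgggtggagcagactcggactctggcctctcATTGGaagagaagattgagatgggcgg
Fancf promoter: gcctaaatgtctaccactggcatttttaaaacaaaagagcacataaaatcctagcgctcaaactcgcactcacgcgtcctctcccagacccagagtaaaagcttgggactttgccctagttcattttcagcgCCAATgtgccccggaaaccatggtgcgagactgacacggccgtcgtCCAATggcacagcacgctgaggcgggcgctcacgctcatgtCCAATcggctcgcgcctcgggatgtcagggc
The Brca2 window holds 1 E2F match, on the minus strand 168 bases before the start, and no CCAAT. The Rad52 window holds neither. Xrcc3 carries 6 CCAAT boxes, one pair of them side by side on opposite strands, and Fancf carries 3.

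Promoters were found for 21 of the 29 genes in the RefSeq table. The E2F letters searched were TTTCCCGC, TTTGGCGC, TTTCGCGC and TTTGCCGC on both strands, and 3 of the 21 genes (14.3%) had one, Bard1, Brca2 and Fancg, against 2.16% of the 27025 genes with a promoter there. CCAAT on either strand was present in 13 of 21 (61.9%), against 37.5% of all genes. The letters TTTGAA or TTCGAA, a form of the cell cycle homology region, occurred in 1 gene, Bard1 (4.76%), against 19.6%, and the NRF1 palindrome in 0 of 21, against 0.877%. These matches describe letters and are neither bound sites nor a cause. The 27025 genes were not limited to genes that passed the filter on low counts, whereas all of the 21 passed it. The shares are therefore not like for like.

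Depth ranged from 12311442 to 23223139 counts per library, and a count of 0 would allow a level of up to 0.129 to 0.244 CPM, for counting error alone. Rn45s, a ribosomal RNA precursor, held 8.02% and 9.98% of counts under RPRD1B shRNA against 5.63% and 7.69% under scrambled shRNA in set 2. In set 1 it held 4.99% and 5.72% under RPRD1B shRNA against 6.94% and 7.44% under scrambled shRNA, the opposite order. RPRD1B replicate 4 had both the most counts and the highest Rn45s share. The part of depth and Rn45s in the values of the 29 genes was not tested. CPM, the usual scaling of counts to a common library size, was taken here after TMM scaling, which evens out library composition. The target Rprd1b stood at 22.5, 22.7, 26.4 and 28.0 CPM in the RPRD1B shRNA libraries and at 39.5, 40.8, 42.4 and 44.4 CPM in the scrambled libraries, with no overlap. Its log2 fold change was -0.75 ± 0.07 (SE, edgeR quasi-likelihood test, adjusted p = 4.14e-14). Of the markers of the labelled cell type, 10 fibroblast genes summed to 17600 to 18000 CPM under RPRD1B shRNA and 17800 to 18400 CPM under scrambled shRNA. Single markers did change: over both sets 3 of the 10 were called higher, Col3a1 (log2 fold change 0.46), Pdgfra (0.37) and Vim (0.12), and 2 lower, Sparc and Pdgfrb (both -0.16), with the Pdgfrb call lost without scrambled replicate 3 (edgeR adjusted p = 0.0560). The 8 epithelial markers summed to 0 to 0.527 CPM under RPRD1B shRNA and 0.0733 to 0.585 CPM under scrambled shRNA, with 5 of them at 0 in every library. The 6 endothelial markers summed to 0.349 to 0.658 CPM under RPRD1B shRNA and 0.177 to 0.538 CPM under scrambled shRNA. The 7 macrophage and blood markers summed to 5.79 to 7.74 CPM under RPRD1B shRNA and 5.05 to 10.8 CPM under scrambled shRNA, with 2 at 0. The 8 neural markers, of which 3 passed the filter, summed to 43.2 to 50.2 CPM under RPRD1B shRNA and 45.0 to 53.3 CPM under scrambled shRNA. Of those 3, Syn1 was called higher (0.24) and Nes lower (-0.52), and the Syn1 call was lost without any one of 4 single libraries: RPRD1B replicate 1 (edgeR adjusted p = 0.0555) or 4 (0.0689), or scrambled replicate 2 (0.0617) or 3 (0.0710). Without the set term the calls of these markers were lost, except that of Col3a1. Their part in the values of the 29 genes was not tested.

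The first comparison set RPRD1B shRNA against scrambled shRNA over all 8 libraries, with the set as a term. Most of the 29 genes stood slightly lower in the knockdown cells, and 1 of them, Brca2, passed the test. The Fanconi core gene Fancg and the strand-exchange paralog Xrcc2 had the lowest estimates, at log2 fold changes of -0.39 and -0.35, with wide errors. In all, 0 of 29 were called higher and 1 lower (3.45%), where 7.57% of the 11723 tested genes were called in either direction, 3.97% higher and 3.61% lower. The share called was therefore no larger than the background. The estimates of 23 of 29 genes (79.3%) lay below 0, against 49.2% of all tested genes (24 of 29 with upper-quartile scaling), with a median of -0.105 (from -0.39 to 0.06) against 0.0020. DESeq2 called the same gene of the 29, Brca2, and no other. An unadjusted p under 0.05 in edgeR was reached by 9 of the 29 and by 19.5% of all tested genes: Brca2, Xrcc2, Rad51c, Mre11a, Rad50, Fance, Fancg, Fancl and Fancd2. Within sets, 18 genes were below 0 in both, 0 were above 0 in both, and 11 had opposite signs. Of all tested genes 50.2% were below 0 in set 2 and 49.4% in set 1, but the share below 0 in both was not computed.

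**Figure D1:**
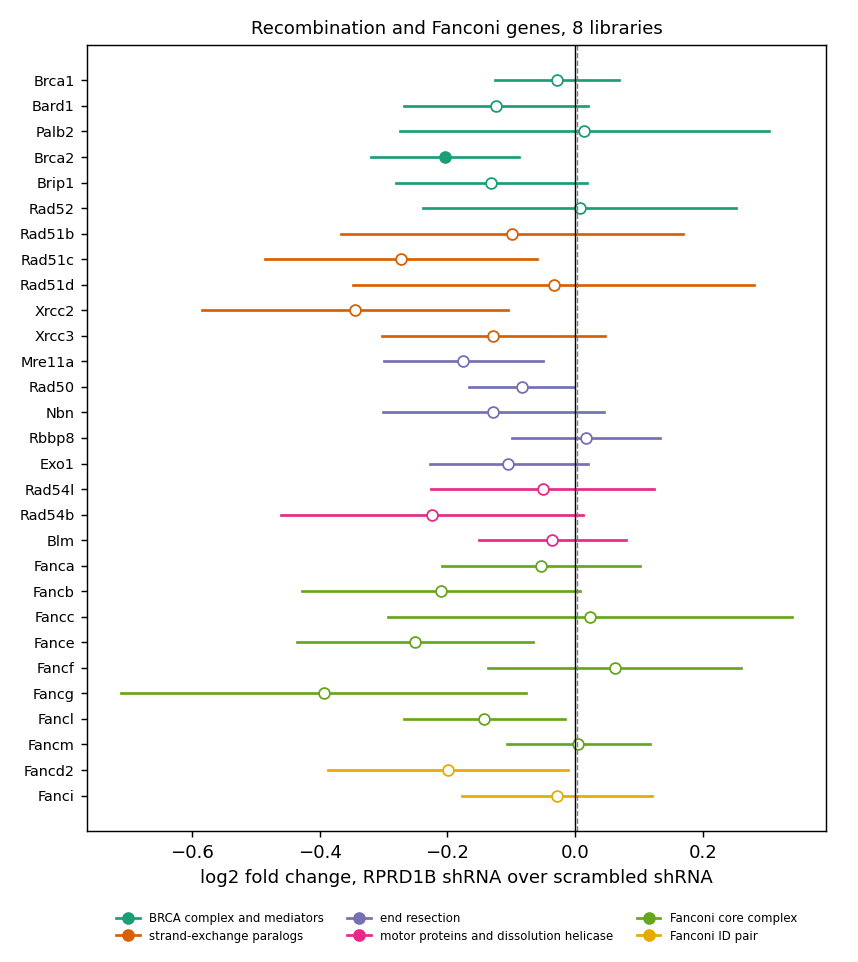
Log2 fold change of RPRD1B shRNA over scrambled shRNA for the 29 genes over 8 libraries (points, with 95% intervals as bars), coloured by role, with a filled point where the adjusted p was under 0.05 and a dashed line at the median of all tested genes. Brca2 is the 1 filled point, at -0.20, and 23 of the 29 points lie left of 0.

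A second description, which uses no model, counted genes whose RPRD1B shRNA and scrambled libraries did not overlap within either set and stood in the same order in both. This held for 9 of 29 genes (31.0%), all with the knockdown libraries lower, and for 0 with them higher. Over all tested genes 16.4% were separated in this way, 8.18% with the knockdown libraries lower and 8.23% with them higher. The 9 genes were Brca2, Xrcc2, Mre11a, Exo1, Fancb, Fance, Fancg, Fancl and Fancd2, which come from 5 of the 6 roles. The summed level of the 29 genes was 850 and 825 CPM in the RPRD1B shRNA libraries of set 2, against 878 and 884 CPM in its scrambled libraries, a difference of -4.97%. In set 1 it was 775 and 773 CPM under RPRD1B shRNA against 829 and 830 CPM under scrambled shRNA, a difference of -6.76%. Brca1 and Rad50 alone held 27.1% of the sum in set 2 and 23.0% in set 1.

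Among the genes of the BRCA complex and mediators, Brca2 fell. BRCA2 is a mediator that acts on single-stranded DNA once the end is cut back; its gene lies at chr5:150522630-150570329 on the plus strand (GRCm38) and has 27 exons in its longest coding transcript. Brca2 stood at 42.1 and 37.8 CPM in the RPRD1B shRNA libraries of set 2, against 44.3 and 44.6 CPM in the scrambled ones. In set 1 it stood at 45.0 and 44.1 CPM under RPRD1B shRNA against 52.4 and 53.0 CPM under scrambled shRNA. Both knockdown libraries lay below both scrambled libraries in each set, although the set 1 knockdown libraries overlapped the range of the scrambled libraries of set 2. The log2 fold change was -0.20 ± 0.06 (SE; 95% interval -0.32 to -0.09), a level 13.2% lower, with an adjusted p of 0.0164 in edgeR's quasi-likelihood test. When edgeR was fitted to each set alone, the estimate was -0.17 for set 2 (adjusted p = 0.293), against -0.24 for set 1 (0.0603), and the difference between sets did not pass the test (0.08 ± 0.11, adjusted p = 0.892). An exact two-sided permutation of labels within sets gave p = 0.0556 for Brca2, the smallest its 36 assignments allow. Groups that lie apart in the same order in both sets always reach this value, so it adds nothing to the separation. It was run only for Brca2 and Rad52, which had been called. The call was lost without RPRD1B replicate 2 (adjusted p = 0.0671) or RPRD1B replicate 4 (0.0856), and without the set term.

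The partners of BRCA2 gave smaller estimates and no call over both sets. Brca1, the ubiquitin ligase subunit that promotes resection and recruits PALB2, stood at 118 and 116 CPM under RPRD1B shRNA and 128 and 114 CPM under scrambled shRNA in set 2, and at 53.6 and 48.1 CPM under RPRD1B shRNA against 49.4 and 51.9 CPM under scrambled shRNA in set 1. Its groups overlapped in both sets, and the log2 fold change was -0.03 ± 0.05, with an interval of -0.125 to 0.0684. Bard1, the obligate partner of BRCA1, stood at -0.12 ± 0.07 and Brip1, a helicase that binds BRCA1, at -0.13 ± 0.07. Palb2, which bridges BRCA1 and BRCA2, was at 0.01 ± 0.145 and overlapped between groups, with 8.78 and 7.20 CPM under RPRD1B shRNA against 5.59 and 8.61 CPM under scrambled shRNA in set 2. Its interval, -0.275 to 0.303, still holds changes larger than that of Brca2.

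All 5 strand-exchange paralogs, Rad51b, Rad51c, Rad51d, Xrcc2 and Xrcc3, whose proteins form small complexes that aid strand exchange, had estimates below 0, with a median of -0.13, and 0 of the 5 were called. Xrcc2 (chr5:25689812-25705825, minus strand, 3 exons) stood at 6.29 and 6.02 CPM in the knockdown libraries of set 2, against 7.47 and 7.69 CPM in the scrambled ones. In set 1 the levels were 10.2 and 9.54 CPM under RPRD1B shRNA against 11.9 and 13.7 CPM under scrambled shRNA. The knockdown libraries were lower than both scrambled libraries in each set, and the log2 fold change of -0.35 ± 0.12 had an adjusted p of 0.0624 in edgeR. Rad51c, a paralog shared by both paralog complexes, stood at 11.8 and 9.20 CPM under RPRD1B shRNA against 12.8 and 12.8 CPM under scrambled shRNA in set 2 and at 13.0 and 11.6 CPM under RPRD1B shRNA against 12.8 and 16.0 CPM under scrambled shRNA in set 1. Its groups overlapped in set 1, where RPRD1B replicate 1 was above scrambled replicate 1, and the log2 fold change was -0.27 ± 0.11 (edgeR adjusted p = 0.110). Xrcc3 was at -0.13 ± 0.09, Rad51b at -0.10 ± 0.13 and Rad51d at -0.03 ± 0.16.

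Of the 5 end resection genes, 4 had estimates below 0 and 0 were called. Mre11a, the nuclease of the complex (chr9:14784654-14837123, plus strand), stood at 32.2 and 34.3 CPM under RPRD1B shRNA against 36.5 and 37.5 CPM under scrambled shRNA in set 2, and at 38.7 and 35.4 CPM under RPRD1B shRNA against 42.3 and 43.0 CPM under scrambled shRNA in set 1. Its groups did not overlap in either set, and its log2 fold change was -0.18 ± 0.06 (edgeR adjusted p = 0.0727). Rad50, the coiled-coil ATPase that tethers the ends, had the deepest counts of the 29, a mean of 1875, and the narrowest error. Its levels were 109 and 108 CPM under RPRD1B shRNA against 121 and 116 CPM under scrambled shRNA in set 2 and 133 and 132 CPM under RPRD1B shRNA against 129 and 142 CPM under scrambled shRNA in set 1, with overlap in set 1. The log2 fold change of Rad50 was -0.08 ± 0.04 (edgeR adjusted p = 0.246). Exo1, the exonuclease of long-range resection, was at -0.10 ± 0.06 with the groups apart in both sets. Nbn, which recruits the ATM kinase, was at -0.13 ± 0.09, and Rbbp8, the gene of CtIP, at 0.02 ± 0.06.

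The motor proteins and the dissolution helicase gave 3 estimates below 0 and 0 calls. Rad54b, a translocase of the SWI2/SNF2 family, stood at -0.22 ± 0.12, its relative Rad54l, the gene of RAD54, at -0.05 ± 0.09, and the helicase Blm at -0.04 ± 0.06. The count of Rad54b is uncertain, because 35.8% of its annotated exon bases are shared with Fsbp on the same strand, and 15.4% of those of Rad54l lie opposite exons of Lrrc41. The library kit is not described as stranded and the counting is not given in the sources used here, so reads of such pairs may be mixed.

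In the Fanconi core complex, which holds the ligase and its scaffold, 5 of 8 estimates were below 0 and 0 were called. Fancg, a scaffold subunit (chr4:43002343-43010506, minus strand), stood at 5.80 and 6.32 CPM under RPRD1B shRNA against 7.30 and 8.07 CPM under scrambled shRNA in set 2, and at 2.39 and 2.63 CPM under RPRD1B shRNA against 3.88 and 3.29 CPM under scrambled shRNA in set 1. Its groups did not overlap in either set, but it had the fewest counts of the 29, a mean of 77.25, and the log2 fold change of -0.39 ± 0.16 had an adjusted p of 0.126 in edgeR. Fance, the subunit that binds FANCD2 (chr17:28313519-28326572, plus strand), stood at 16.4 and 16.7 CPM under RPRD1B shRNA against 18.5 and 17.8 CPM under scrambled shRNA in set 2 and at 12.6 and 14.9 CPM under RPRD1B shRNA against 19.5 and 16.2 CPM under scrambled shRNA in set 1. The Fance groups did not overlap within a set, and the log2 fold change was -0.25 ± 0.09 (edgeR adjusted p = 0.0877). Fancb, which forms a subcomplex with FANCL, was at -0.21 ± 0.11, and Fancl, the ligase itself, at -0.14 ± 0.06 with 28.6 and 34.0 CPM under RPRD1B shRNA against 34.7 and 36.8 CPM under scrambled shRNA in set 2 and 45.3 and 41.5 CPM under RPRD1B shRNA against 48.1 and 45.9 CPM under scrambled shRNA in set 1. Both kept the groups apart within sets.

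The other core genes lay nearer 0. Fanca, a scaffold subunit, was at -0.05 ± 0.08, Fancc at 0.02 ± 0.16, Fancf, an adaptor that links subcomplexes, at 0.06 ± 0.10, and Fancm, the translocase that anchors the complex on DNA, at 0.00491 ± 0.06 (-0.000372 with upper-quartile scaling). Of the pair that the ligase modifies, Fancd2 stood at 13.8 and 14.4 CPM under RPRD1B shRNA against 16.8 and 15.1 CPM under scrambled shRNA in set 2 and at 13.4 and 15.7 CPM under RPRD1B shRNA against 17.8 and 16.2 CPM under scrambled shRNA in set 1. The Fancd2 groups did not overlap within a set, and the log2 fold change was -0.20 ± 0.09 (edgeR adjusted p = 0.217). Its partner Fanci overlapped in set 1, with 28.8 and 27.6 CPM under RPRD1B shRNA against 30.9 and 24.2 CPM under scrambled shRNA, and was at -0.03 ± 0.07. Exons of a neighbour on the other strand cover 16.4% of the exon bases of Fancc (Gm16133), 16.0% of Fanci (Polg), 15.0% of Fancf (Gas2), 13.7% of Fancl (Vrk2) and 10.5% of Fanca (Zfp276).

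**Figure D2:**
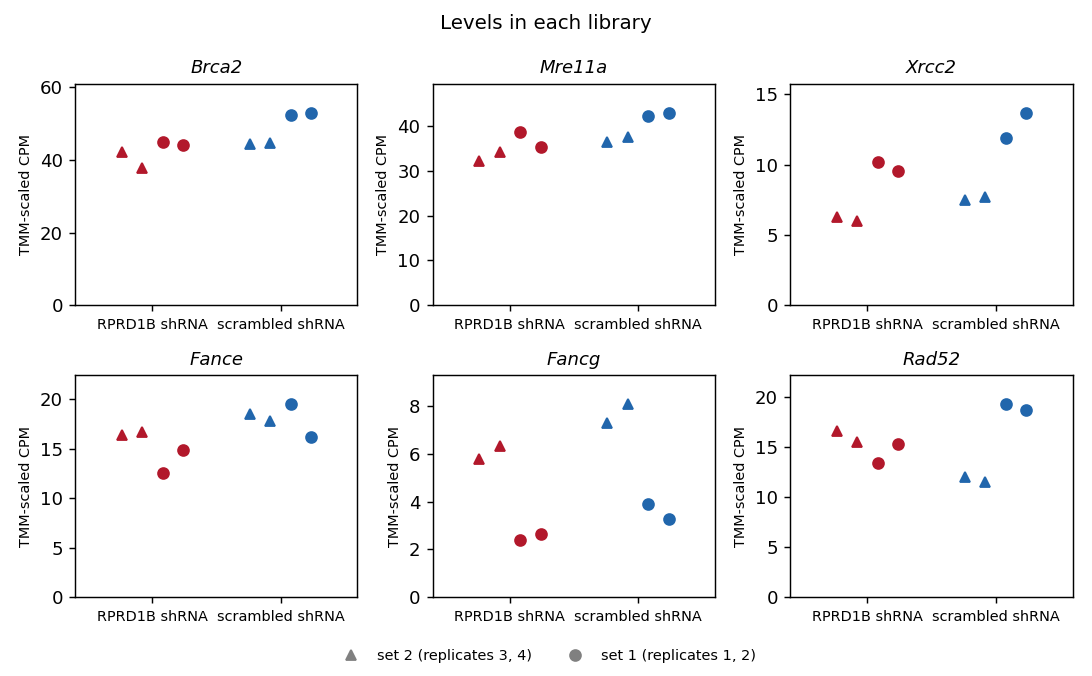
TMM-scaled CPM (y axis, from 0) of 6 genes in each library, RPRD1B shRNA left in red and scrambled shRNA right in blue, triangles for set 2 and circles for set 1. In Brca2, Mre11a, Xrcc2, Fance and Fancg the red points lie below the blue points of the same shape, while in Rad52 the triangles run the opposite way from the circles.

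How small a change could have been called differed among the genes. At the error of each gene, the log2 change needed for a call over both sets ran from 0.12 for Rad50 to 0.48 for Fancg, with 0.17 for Brca2 and 0.36 for Xrcc2. For genes of few counts such as Fancg, Fancc, Palb2 and Rad51d, changes the size of the Brca2 difference were not detectable at this depth.

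Rad52 was called in each set, in opposite directions. RAD52 anneals single strands and, in mammals, backs up BRCA2; its gene lies at chr6:119902698-119922828 on the plus strand. In set 2 Rad52 stood at 16.6 and 15.5 CPM under RPRD1B shRNA against 12.0 and 11.5 CPM under scrambled shRNA. In set 1 it stood at 13.4 and 15.3 CPM under RPRD1B shRNA against 19.3 and 18.7 CPM under scrambled shRNA. The knockdown libraries of both sets lay between 13.4 and 16.6 CPM, while the scrambled libraries of the sets lay on either side of that range. Rad52 thus rose in set 2, by a log2 fold change of 0.44 ± 0.14 (adjusted p = 0.0406), and fell in set 1, at -0.40 ± 0.13 (adjusted p = 0.0472), in edgeR fits of each set. It was the 1 gene of 29 called in set 2, where 5.19% of tested genes were called, 2.55% higher and 2.64% lower. In set 1 it was also the 1 gene called, where the shares were 4.86% in either direction, 2.68% higher and 2.18% lower.

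The difference between the sets was itself tested as an interaction of set and group. For Rad52 the log2 fold change of set 2 minus that of set 1 was 0.85 ± 0.19 (95% interval 0.47 to 1.22; edgeR adjusted p = 0.0220), and it was the 1 gene of 29 called, where 0.247% of tested genes were called, 0.171% with a positive and 0.0768% with a negative difference. An exact two-sided permutation within sets gave p = 0.0556 for Rad52, the smallest possible. Groups that lie apart in opposite orders in the sets always reach this value, so it adds nothing to the levels above. The call of the difference was lost in DESeq2 (adjusted p = 0.176) and without any library other than scrambled replicate 2 or RPRD1B replicate 2, at adjusted p = 0.0585 to 0.166 with edgeR, while the estimate lay between 0.755 and 0.948 when each library was left out in turn. The calls within each set were lost in DESeq2, with no filter on low counts, and without any single library of that set (adjusted p = 0.114 to 0.408 in edgeR). Over both sets the opposite values left an estimate of 0.01 ± 0.12 for Rad52. For the other 28 genes the differences between sets ran from -0.455 for Fancf to 0.34 for Palb2, with 0 called by edgeR or DESeq2; with Rad52, 3 of the 29 (10.3%) had an unadjusted p under 0.05 in edgeR, near the 8.64% of all tested genes.

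**Figure D3:**
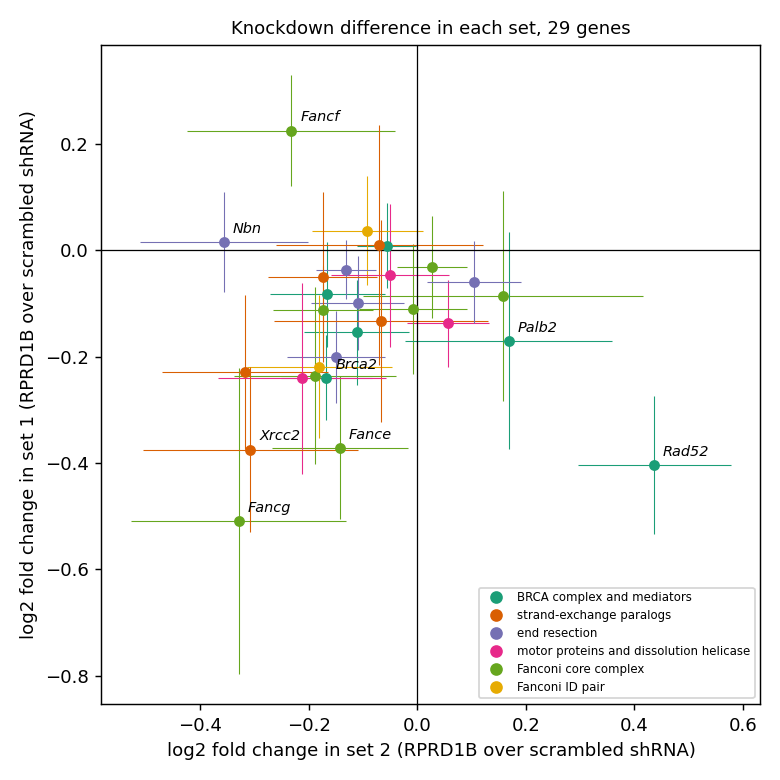
Log2 fold change of RPRD1B shRNA over scrambled shRNA in set 2 (x axis) and in set 1 (y axis) for the 29 genes, with bars of 1 SE, coloured by role. Rad52 lies farthest to the lower right, at 0.44 in set 2 and -0.40 in set 1. In the lower left quadrant lie 18 genes, a count for which no share over all tested genes was computed.

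The levels of these genes were also compared between the sets, with the group as a term. The median size of the log2 difference was 0.31 between sets, against 0.105 between groups. Over all tested genes it was 0.308 between sets and 0.0776 between groups. Of the 29 genes, 10 were called higher and 10 lower in set 2 than in set 1 (69.0%), where 65.9% of the 11723 tested genes were called, 33.0% higher and 32.9% lower, so the share was near the background. A difference past 1 on the log2 scale was shown by 6 genes (20.7%), against 11.4% of tested genes (1333). The sets have no stated meaning, so these are differences between deposited tables. The BRCA complex, the strand-exchange paralogs and the Fanconi core each had calls in both directions. Of the resection genes 0 of 5 were higher and 4 lower in set 2, all 3 motor and dissolution genes were higher, and neither of the Fanconi ID pair was called.

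Xrcc3, the paralog that pairs with RAD51C (chr12:111803192-111813873, minus strand), stood at 28.4 ± 2.10 CPM in set 2 and 10.8 ± 1.16 CPM in set 1 (SD, n = 4 each), a log2 difference of 1.38 ± 0.09 (edgeR adjusted p = 1.56e-22). All 4 libraries of set 2, at 26.2 to 30.9 CPM, were above all 4 of set 1, at 9.48 to 11.8 CPM. Its promoter is the one printed above with 6 CCAAT boxes. Fancm stood at 79.3 ± 3.56 CPM in set 2 and 31.6 ± 2.05 CPM in set 1, and Brca1 at 119 ± 6.09 CPM in set 2 and 50.8 ± 2.47 CPM in set 1, log2 differences of 1.33 ± 0.06 and 1.23 ± 0.05. Fancg stood at 6.87 ± 1.01 CPM in set 2 and 3.05 ± 0.67 CPM in set 1, a log2 difference of 1.18 ± 0.16. Smaller positive differences, of 0.18 to 0.58 on the log2 scale, were called for Fanca, Rad54l, Rad51d, Rad54b, Fancb and Blm.

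In the other direction, Fancf (chr7:51860577-51862267, minus strand, a gene of 1 exon) stood at 7.36 ± 0.73 CPM in set 2 and 25.8 ± 2.92 CPM in set 1, a log2 difference of -1.83 ± 0.10 (edgeR adjusted p = 8.68e-26). Nbn (chr4:15957925-15992589, plus strand) stood at 11.2 ± 1.80 CPM in set 2 and 33.0 ± 2.07 CPM in set 1, a log2 difference of -1.56 ± 0.09 (edgeR adjusted p = 1.69e-25). For both, no library of set 2 reached any library of set 1. The remaining members lower in set 2 were Fancc, Xrcc2, Rbbp8, Fancl, Bard1, Rad50, Brca2 and Mre11a, at log2 differences of -0.76 to -0.18. Within one complex the genes therefore differed: of the MRE11-RAD50-NBN trio, Nbn stood at -1.56 where Rad50 stood at -0.24 and Mre11a at -0.18. Within the Fanconi core 4 genes were higher and 3 lower in set 2.

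**Figure D4:**
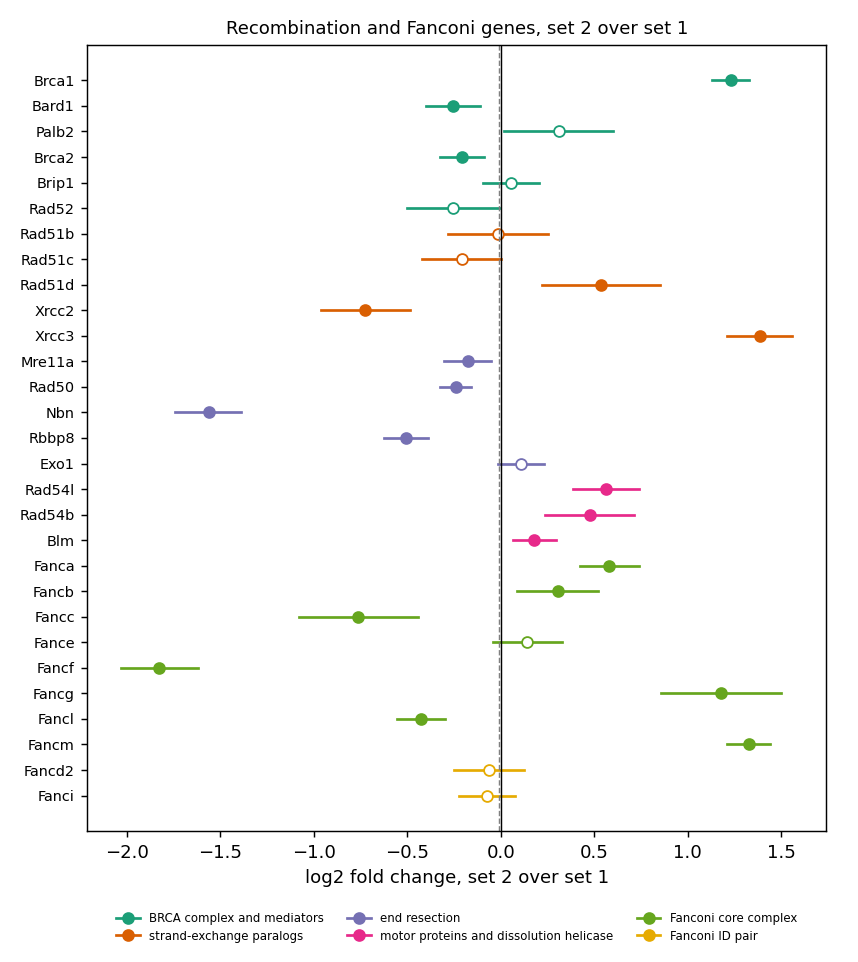
Log2 fold change of set 2 over set 1, fitted with the group as a term, for the 29 genes over 8 libraries (points, with 95% intervals as bars), coloured by role, with a filled point where the adjusted p was under 0.05 and a dashed line at the median of all tested genes. Of the points, 20 are filled, from Fancf at -1.83 to Xrcc3 at 1.38.

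Levels of different genes were set side by side per kilobase of the longest coding transcript. On that scale Rad50 was highest in both sets, at 22.0 CPM per kilobase in set 2 and 26.0 in set 1. Brca1 came next in set 2 at 18.1 CPM per kilobase, against 7.72 in set 1. Besides Rad50, Fancl (16.6), Rbbp8 (16.1), Fancf (15.3), Nbn (13.0), Blm (10.2), Rad52 (9.84) and Fance (7.81) stood above Brca1 in set 1. The lowest was Fancc in set 2, at 1.22 CPM per kilobase, and Fancg in set 1, at 1.10. Brca2 stood at 3.93 CPM per kilobase in set 2 and 4.53 in set 1, and Rad52 at 8.22 in set 2 and 9.84 in set 1.

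Genes of the same pathways that are not among the 29 were taken from 5 lists. Over both sets 51 of their 56 genes were tested, and 0 were called higher and 2 lower, both in the list of strand-exchange genes and their helpers. Of all tested genes 3.97% were called higher and 3.61% lower, so the 2 of 51 called lower were near the background. Swi5, whose protein works with SFR1 in strand exchange, stood at 71.9 and 75.5 CPM under RPRD1B shRNA against 97.6 and 92.4 CPM under scrambled shRNA in set 2, and at 74.4 and 77.2 CPM under RPRD1B shRNA against 99.8 and 98.2 CPM under scrambled shRNA in set 1. The 4 knockdown libraries did not overlap the 4 scrambled ones, and the log2 fold change of Swi5 was -0.37 ± 0.05 (edgeR adjusted p = 2.86e-09). The Swi5 call held in edgeR without each library in turn and was lost without the set term (0.0727). Psmc3ip, the HOP2 protein that aids strand exchange with MND1, stood at 29.2 and 29.1 CPM under RPRD1B shRNA against 33.3 and 31.9 CPM under scrambled shRNA in set 2 and at 24.3 and 25.1 CPM under RPRD1B shRNA against 32.3 and 29.1 CPM under scrambled shRNA in set 1. Its groups were apart in each set, with a log2 fold change of -0.24 ± 0.07 (edgeR adjusted p = 0.0226), a call lost without scrambled replicate 1 (0.128) or RPRD1B replicates 1 (0.0802) or 2 (0.0630).

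In the same list Dmc1 and Hfm1, genes of meiosis, had no count in any library. The list of 16 genes of junction dissolution, resolution and anti-recombinases had 14 estimates below 0 and a median of -0.12, with 0 called by edgeR or DESeq2 and 3 at an unadjusted p under 0.05 in edgeR. Its smallest p-values belonged to the helicase Wrn (-0.14 ± 0.05, edgeR adjusted p = 0.0936) and the nuclease Mus81 (-0.31 ± 0.12, 0.106). In the Fanconi accessory, BRCA1-A and RPA lists neither edgeR nor DESeq2 called a gene, and 0 reached an unadjusted p under 0.05 in either. The 11 tested Fanconi accessory factors had a median of -0.00291. Ercc1, a nuclease partner of XPF, stood there at 0.10 ± 0.06, and Usp1, which removes ubiquitin from FANCD2, at -0.05 ± 0.04. The BRCA1-A list of 10 genes, with the deubiquitinase Brcc3 at -0.11 ± 0.06 and Trp53bp1, which opposes resection, at 0.07 ± 0.05, had a median of -0.00953. The 3 RPA genes, whose proteins coat single-stranded DNA, included Rpa1 at -0.03 ± 0.04 and Rpa3 at 0.04 ± 0.06. In all, 34 of the 51 were below 0, with a median of -0.03, where 49.2% of all tested genes were below 0. Separated lower were 2 of 11 strand-exchange genes (18.2%, with 2 higher) and 1 of 10 BRCA1-A genes (10.0%, with 1 higher). In the junction, Fanconi accessory and RPA lists 0 were separated, where 8.18% of all tested genes were separated lower and 8.23% higher. The junction sum differed by -5.87% in set 2 and -5.51% in set 1, lower within each. In set 1 the groups overlapped in the sums of the other lists. In set 2 the RPA sum was lower, at 285 and 284 CPM under RPRD1B shRNA against 300 and 300 CPM under scrambled shRNA (-5.12%). The BRCA1-A sum was narrowly higher under RPRD1B shRNA there (1.16%), and the strand-exchange and Fanconi accessory sums overlapped.

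Since recombination genes follow the cell cycle, the cycle lists were set beside them. Of 28 G1/S and replication genes 1 was called higher (3.57%, where 3.97% of all tested genes were), the GINS subunit Gins2 at 0.16 ± 0.05 (edgeR adjusted p = 0.0339), and 1 lower, the polymerase Pole at -0.19 ± 0.05 (edgeR adjusted p = 0.00507), with a median of -0.02. Of 25 G2/M genes 0 were called higher and 3 lower (12.0%, where 3.61% of all tested genes were called lower), Top2a at -0.10 ± 0.03, Hmmr at -0.12 ± 0.04 and Aurkb at -0.16 ± 0.05, with a median of -0.02. The summed G2/M level was 3960 and 3860 CPM under RPRD1B shRNA against 4080 and 4060 CPM under scrambled shRNA in set 2, a difference of -4.11%. In set 1 it was 4250 and 4160 CPM under RPRD1B shRNA against 4310 and 4320 CPM under scrambled shRNA, a difference of -2.64%. The summed knockdown levels were thus lower within each set, as they were for the sum of the 29 genes. By the share of estimates below 0 the lists were less alike. Estimates below 0 were found for 14 of 25 G2/M genes and 15 of 28 G1/S genes. The same held for 23 of the 29 genes and 49.2% of all tested genes. Of the G2/M genes 7 of 25 (28.0%) were separated with the knockdown libraries lower in both sets, among them Top2a and Hmmr, and 1 with them higher, where 8.18% and 8.23% of all tested genes were. Of the 29 genes 9 (31.0%) were separated lower and 0 higher, so by this measure the share separated lower was near that of the G2/M genes. Aurkb overlapped in set 2, with 70.8 and 67.5 CPM under RPRD1B shRNA against 71.5 and 70.7 CPM under scrambled shRNA. The G1/S sum differed by -1.39% in set 2 and by -1.82% in set 1, where the groups overlapped, and 5 of 28 genes (17.9%) were separated lower and 1 higher. The part of the cycle in the values of the 29 genes was not tested. The calls of Pole, Gins2, Top2a, Hmmr and Aurkb were each lost without 1 or more single libraries, at adjusted p = 0.0556 to 0.281 in edgeR. Without the set term all 5 were lost, and with the DESeq2 test Gins2 (adjusted p = 0.0769) and Aurkb (0.0921).

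The position of the genes was described by the median log2 fold change of the tested genes within 10 Mb on either side. These medians ran from -0.11 to 0.02 around the 29 genes and were below 0 around 21 of them. No such share was computed over all tested genes, and windows of genes that lie close together, such as Brip1 and Rad51c, share neighbours. Around Brca2 the median of 76 neighbours was -0.01, where Brca2 stood at -0.20, and around Xrcc2 and Fancg the medians were -0.01 and -0.00038. Fancl at -0.14 and Rad50 at -0.08 lay in stretches of chromosome 11 whose medians were -0.11 (71 genes) and -0.10 (147 genes), about their own size. Fancm lay in a stretch with a median of -0.09 and stood at 0.00491. For Fancl and Rad50 the part of the stretch in the estimate was not tested.

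**Figure D5:**
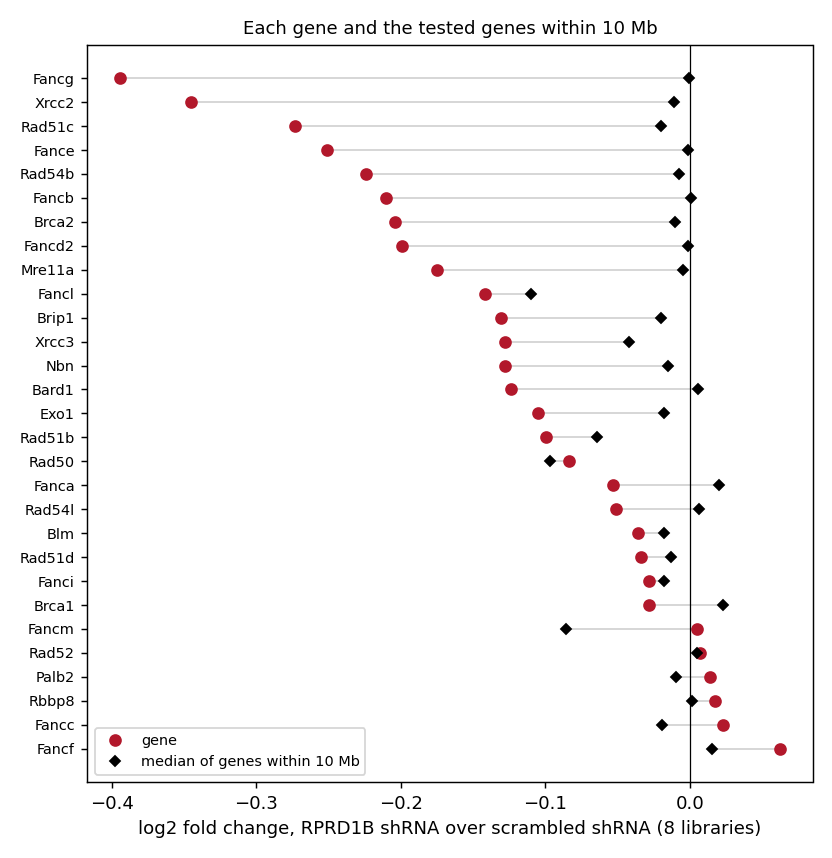
Log2 fold change of RPRD1B shRNA over scrambled shRNA over 8 libraries for each of the 29 genes (red circles) and the median of the tested genes within 10 Mb on either side (black diamonds), sorted by the value of the gene. For Fancl and Rad50 circle and diamond lie close together below 0, while for Fancg, Xrcc2 and Brca2 the diamond lies near 0.

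The authors' deposited tables list all 29 genes in each set, with 0 at a q-value under 0.05. In the authors' deposited table of set 2 the smallest q among them was that of Rad52 (log2 fold change 0.40, SE 0.15, q = 0.206), and 23 of 29 lay below 0. In the authors' deposited table of set 1 the smallest q was that of Brca2 (-0.23, SE 0.08, q = 0.109), with Rad52 at -0.37 (SE 0.14, q = 0.140) and 24 of 29 below 0. Medians of the 29 were -0.13 in the authors' deposited table of set 2 and -0.11 in that of set 1.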

How the data were processed

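RNA was sequenced as 75-base paired reads, per the labels' protocols, from 4 RPRD1B shRNA and 4 scrambled shRNA libraries, grouped by their titles. The authors deposited raw counts per gene for each set, which are whole numbers and not filtered. The genome build is mm10, per the submitters' processing notes, and no aligner, counter or annotation is named in the sources used here. The authors' deposited comparisons give a signal (mean normalised count), a log2 fold change with its error and a q-value per gene, copied and not tested. Among the entries, 27 are gene names that became dates and were kept unnamed.

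The robust quasi-likelihood F test of edgeR 4.0.16 (R 4.3.3) was run for genes averaging at least 10 counts, on TMM-scaled counts of the whole table. A gene was called at a two-sided Benjamini-Hochberg adjusted p under 0.05. Fits over 8 libraries had set and group as terms, those within a set the group, and the difference between sets their interaction. The tests were tried on simulated counts. Alternatives were dropping the filter or raising it to 50 counts, upper-quartile scaling or size factors of DESeq2 1.42.0, the test of that tool, no set term, a replicate block and leaving out each library. Spans, transcript lengths and exon overlaps come from GENCODE vM21 (GRCm38), which names 11002 of the 11723 tested genes, and promoters from RefSeq.

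The members and lists were chosen with earlier results of these data known. All 29 genes, Rprd1b and, per pathway list, the called genes or otherwise up to 2 with the smallest p were named, with up to 4 for cell cycle lists. Dmc1, Hfm1 and the called markers were added after their values were seen. Faap24, Faap100, Faap20 and Adgre1 were not analysed here, and 1 other gene of the pathway lists is not reported here.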

Additional observations from a re-analysis of the deposited data

Results flagged for a closer look

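Rad52 was flagged because its knockdown difference differed between the sets by test. The log2 fold change in set 2 exceeded that in set 1 by 0.85 ± 0.19 (edgeR adjusted p = 0.0220), with both RPRD1B shRNA libraries above both scrambled libraries in set 2 and below both in set 1.

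Rad51c was flagged because 1 of its 4 scrambled libraries lay far from the rest: scrambled replicate 2 stood at 16.0 CPM, and the other 3 at 12.8 CPM. In all, 92 groups of 4 libraries were examined in this way. Each held libraries of both sets, whose levels differ for many genes, so the usual chance rate of about 1 in 20 does not apply.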

How the results depend on the processing

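The median of the 29 genes, -0.105 over both sets, stayed between -0.12 and -0.09 under every alternative run, and Brca2 was called with DESeq2, both other scalings, both other filters and the replicate block. Without the set term, 18 genes were called in place of 888, 0 of the 29 and 0 of the pathway and cell cycle list genes in place of 7. Leaving out single libraries gave 0 to 1 of the 29 called over both sets, in set 1 and for the difference between sets, and 0 in set 2; in set 1 the gene called without scrambled replicate 2 was Fance. With no filter on low counts 0 were called in set 1 and 0 in set 2, and with DESeq2 0 in set 1, set 2 and for the difference. Of the pathway and cell cycle lists 2 to 7 genes were called without single libraries. Separated genes numbered 9 to 12 without single libraries. Separation is easier with fewer libraries, so this count could hardly fall, and it says nothing of stability. No share over all tested genes was computed for it. The cause of the lost calls was not tested.

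The replicate numbers gave no pairing: for same-numbered libraries, deviations from the group means had a correlation over genes of -0.045 (set 2) and 0.0208 (set 1). With the replicate block 846 genes were called over both sets, and 1 of the 29 over both sets, in each set and for the difference between sets, as without it. Fancc turned to -0.00282 under the block and to -0.00879 without the set term, Rad52 to -0.018 without the set term and Fancm to -0.000372 with upper-quartile scaling. Signs also turned when single libraries were left out, for estimates near 0. Over both sets the ranges were -0.0761 to 0.0236 for Blm, -0.0603 to 0.0198 for Brca1, -0.0804 to 0.134 for Fancc, -0.0467 to 0.138 for Fancf, -0.108 to 0.0281 for Fanci, -0.0404 to 0.0432 for Fancm, -0.154 to 0.113 for Palb2, -0.208 to 0.107 for Rad51d, -0.0838 to 0.127 for Rad52, -0.131 to 0.0121 for Rad54l and -0.0322 to 0.0409 for Rbbp8. Between sets they were -0.0284 to 0.138 for Brip1 and -0.0714 to 0.041 for Rad51b.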

Other observations

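Within set 2, RPRD1B replicate 4 had the lowest level of the 4 libraries for 12 of the 29 genes and RPRD1B replicate 3 for 8, and scrambled replicate 4 had the highest for 15. Within set 1, RPRD1B replicates 1 and 2 were each lowest for 12, and scrambled replicates 1 and 2 were highest for 12 and 10.

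Across the 29 genes, the log2 fold change of RPRD1B shRNA over scrambled shRNA correlated with the GC percentage of the transcript at a Pearson r of 0.058 (Spearman's rho 0.19) and with the mean level (log2 CPM) at 0.27 (rho 0.19). The Pearson values were 0.036 for GC over the 11002 tested genes named in GENCODE and -0.016 for the mean level over all 11723 tested genes. The log2 fold change of set 2 over set 1 correlated with GC at 0.099 (rho 0.21) and with transcript length at 0.27 (rho 0.16) across the 29 genes. Over the same 11002 tested genes these Pearson values were 0.12 and 0.051. These genes share libraries and are not independent replicates, so the values are descriptions.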
